A study of Homo sapiens with 30 samples.

Results

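The genes described here are 10 immediate early genes, EGR1, EGR2, EGR3, KLF6, KLF10, IER2, IER3, IER5, IER5L and ZFP36, chosen by name out of the 58278 gene identifiers in each count table. All 10 were found by their Ensembl identifiers, and all 10 were among the 22321 genes that passed the filter on low counts. In GENCODE release 29 (GRCh38) ZFP36 lies at chr19:39406813-39409412, IER2 at chr19:13150415-13154908, KLF6 at chr10:3775996-3785281 and IER3 at chr6:30743199-30744554, and EGR3 and KLF10 lie on chromosome 8. Immediate early genes are transcribed within minutes of a growth factor, serum or stress signal without new protein synthesis, largely through transcription factors that are already present, such as serum response factor with its ETS partners, CREB and heat shock factor 1. Many of their mRNAs decay quickly through AU-rich elements in the 3′ untranslated region, so that their level depends on both synthesis and decay. In cultured epithelial lines such as HEK293 they are best known as markers of MAP kinase signalling and of acute stress.

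Messenger RNA was sequenced from HEK293, a human embryonic kidney cell line labelled wild type, in 30 libraries that form 10 groups of 3 independent replicates. Every library came from cells transfected with a plasmid for an EGFP-mCherry mistranslation reporter and sorted for mCherry at 48 h, so the control groups also carry the transfection, the reporter and the sort, and no untransfected cells enter any comparison. The 5 control groups held a reporter alone, and the 5 partner groups held the same reporter together with a mischarged transfer RNA (mc-tRNA), which by its name brings one amino acid to the codons of another. The reporter EGFP(R65) was paired with Ser-tRNA_Arg(CCG). Arg-tRNA_Gln(CUG) was paired with EGFP(R96Q) and Arg-tRNA_Cys(GCA) with EGFP(R96C), while EGFP(R96H) went with Arg-tRNA_His(GUG) and EGFP(R96W) with Arg-tRNA_Trp(CCA). The question each pair addresses is how the transcriptome differs when the mc-tRNA is present, and the 5 comparisons share no library. Expression was transient in 1 cell line, and the amount of each mc-tRNA was not analysed here.

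Counts assigned to genes ran from 39017548 to 55446962 per library, and replicates differed by more than counting noise in every group. All 9 HEK293 markers averaged at least 1 CPM (gene counts scaled per library with TMM factors), with group sums of 695 to 928 CPM. Summed markers of other cell types lay lower, with 18.6 to 54.6 CPM for 6 stromal genes and 11.7 to 41.9 CPM for 2 neuronal genes, both highest with Arg-tRNA_Cys(GCA), and 1.92 to 12.2 CPM for 5 blood genes, 0.274 to 9.79 CPM for 2 liver genes and 0.00708 to 0.205 CPM for 3 keratinocyte genes, these highest with Ser-tRNA_Arg(CCG). Single genes weigh heavily in these sums: with EGFP(R65) alone VIM gave 437 of the 695 CPM of the HEK293 markers. In that group PAX2 at 2.76 and LHX1 at 2.97 CPM lay below the stromal COL1A1 at 25.1 and the neuronal SYT1 at 13.3 CPM. The part of the markers of other cell types in the results was not tested. Levels below are averages over sorted cells, in which fewer responding cells and less RNA per cell cannot be told apart.

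With Arg-tRNA_Cys(GCA) the response was led by IER5, which rose 16.6-fold, together with IER5L, ZFP36, KLF6 and IER3, while KLF10 fell and the EGR genes did not pass the test. With Ser-tRNA_Arg(CCG) another set moved: ZFP36, EGR3, IER5, IER2 and EGR2 rose and EGR1, KLF6 and KLF10 fell. Arg-tRNA_Trp(CCA) raised IER5, ZFP36 and IER2 and lowered KLF10, EGR3 and EGR1. With Arg-tRNA_Gln(CUG) 1 gene, EGR1, fell, and with Arg-tRNA_His(GUG) none passed. A gene is said to rise or fall where the adjusted p of edgeR's quasi-likelihood test, over all genes tested, was under 0.05.

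**Figure D1:**
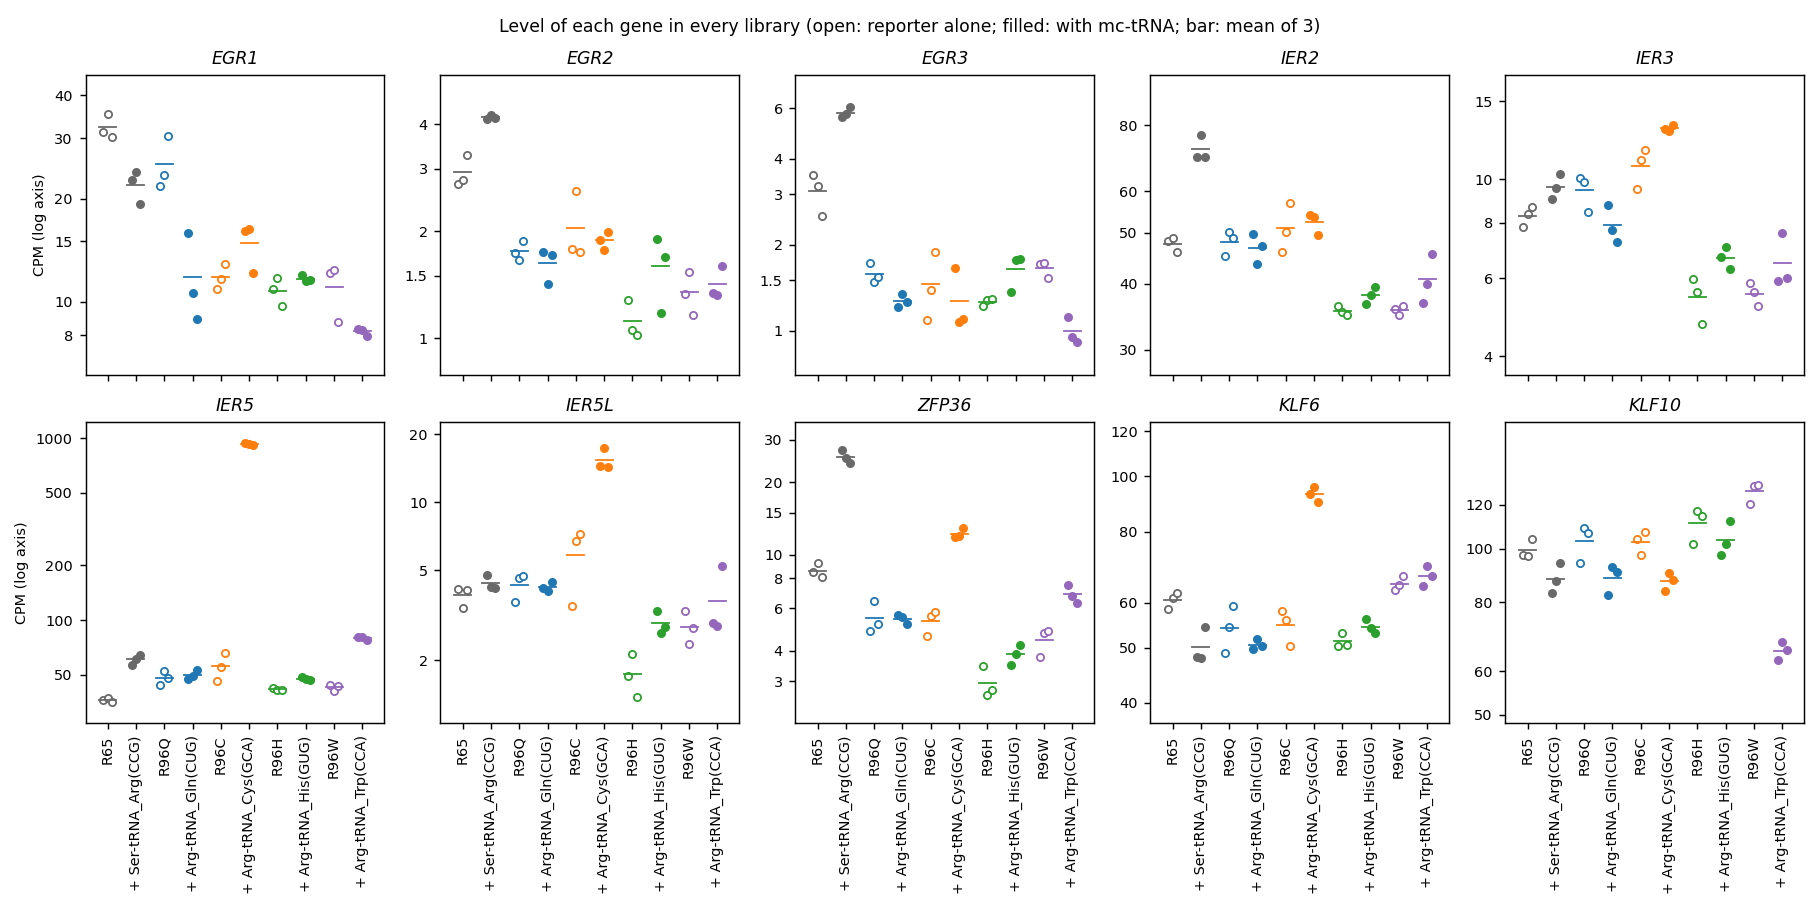
Level of each of the 10 genes in all 30 libraries, in CPM on a log axis that differs between panels, with open points for the reporter alone, filled points for the reporter with its mc-tRNA and a bar for the mean of 3. The 3 IER5 libraries with Arg-tRNA_Cys(GCA) sit between 916 and 941 CPM, far above every other library, and EGR1 is highest with EGFP(R65) alone.

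These counts have to be read against how much of the whole transcriptome moved. With Ser-tRNA_Arg(CCG) 57.3% of all genes tested passed (26.6% rose and 30.7% fell), beside 5 rises and 3 falls among the 10. With Arg-tRNA_Cys(GCA) 60.7% passed (30.2% rose and 30.5% fell), beside 5 rises and 1 fall. With scaling by library totals in place of TMM, where the median of all genes in the Cys comparison moved from -0.04 to -0.59, these became 4 rises and 5 falls, with IER3, IER2, EGR2 and EGR3 passing as lower. With Arg-tRNA_Trp(CCA) 42.5% passed (20.7% rose and 21.7% fell), beside 3 rises and 3 falls. With so wide a background, 6 or 8 of 10 genes passing is no result about these genes, and the sizes and directions of their changes are what follows. Arg-tRNA_Gln(CUG) moved 0.551% of all genes and 1 of the 10, and Arg-tRNA_His(GUG) moved 2.51% of all genes (1.56% rose and 0.95% fell) and 0 of the 10.

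The 3 EGR genes encode zinc-finger transcription factors that bind the same GC-rich site. EGR1 is the most widely used readout of serum and MAP kinase signalling, and EGR2 and EGR3 are its relatives, known for roles in nerve myelination and in lymphocytes and muscle spindles. Per kilobase of exon, EGR1 averaged 5.09 CPM over the 30 libraries, against 0.540 for EGR2 and 0.412 for EGR3, which rest on as few as 51 and 36 counts in a library.

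EGR1 was at 31.3, 35.4 and 30.3 CPM with EGFP(R65) alone and at 22.6, 23.9 and 19.3 CPM with Ser-tRNA_Arg(CCG). All 3 libraries with the mc-tRNA lay below all 3 without it, and EGR1 fell by 0.56 ± 0.16 on the log2 scale (SE, adjusted p = 0.00409). EGR1 was at 21.7, 23.5 and 30.5 CPM with EGFP(R96Q) alone and at 15.9, 10.6 and 8.88 CPM with Arg-tRNA_Gln(CUG). The groups did not overlap, and EGR1 fell by 1.10 ± 0.16 (adjusted p = 0.000449), which was the only one of the 10 genes to pass there. When the fit was restricted to those 6 libraries the adjusted p was 0.262 with the same fold change. The mean with Arg-tRNA_Gln(CUG), 11.8 CPM, was near those of EGFP(R96C), EGFP(R96H) and EGFP(R96W) alone, 10.8 to 11.8 CPM. The control of this comparison, EGFP(R96Q) alone, was higher, at 25.2 CPM. With EGFP(R96W) alone EGR1 was at 12.1, 12.3 and 8.76 CPM, and with Arg-tRNA_Trp(CCA) at 8.35, 8.30 and 7.95 CPM, a fall by 0.44 ± 0.17 (adjusted p = 0.0447). That call was lost when any library other than EGFP(R96W) replicate 3 was left out (adjusted p up to 0.168) and without the EGFP(R65) libraries (adjusted p = 0.0653). EGR1 was at 10.9, 11.6 and 12.9 CPM with EGFP(R96C) alone and at 16.1, 16.3 and 12.1 CPM with Arg-tRNA_Cys(GCA), where its log2 fold change of 0.33 ± 0.17 did not pass (adjusted p = 0.0936). Without the lowest of those mc-tRNA libraries, replicate 3, the value was 0.42 (adjusted p = 0.0454), and with only those 6 libraries in the fit the adjusted p was 0.0366. With EGFP(R96H) the libraries ran from 9.70 to 11.7 CPM alone and from 11.5 to 12.0 CPM with Arg-tRNA_His(GUG), and the ranges overlapped.

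EGR2 and EGR3 moved the opposite way to EGR1 with Ser-tRNA_Arg(CCG). EGR2 was at 2.72, 2.80 and 3.28 CPM with EGFP(R65) alone and at 4.15, 4.25 and 4.16 CPM with the mc-tRNA, and it rose by 0.51 ± 0.16 (adjusted p = 0.00732). EGR3 was at 3.51, 3.20 and 2.53 CPM alone and at 5.57, 5.74 and 6.05 CPM with the mc-tRNA, and it rose by 0.91 ± 0.16 (adjusted p = 9.67e-06). Neither gene overlapped between the groups, and the libraries with Ser-tRNA_Arg(CCG) held the highest EGR2 and EGR3 levels of all 10 groups. With Arg-tRNA_Trp(CCA), EGR3 was at 1.12, 0.956 and 0.911 CPM against 1.72, 1.72 and 1.53 CPM with EGFP(R96W) alone, a fall by 0.74 ± 0.19 (adjusted p = 0.00218). Elsewhere EGR2 ran from 1.02 to 2.59 CPM and EGR3 from 1.07 to 1.88 CPM per library, and neither passed in the Gln, Cys or His comparison, nor EGR2 in the Trp comparison.

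The pairwise tests of the effects themselves showed where the EGR genes differ between mc-tRNAs. The EGR3 effect of Ser-tRNA_Arg(CCG) exceeded that of Arg-tRNA_Trp(CCA) by 1.65 on the log2 scale (95% interval 1.14 to 2.16), that of Arg-tRNA_Gln(CUG) by 1.22 (0.73 to 1.72) and that of Arg-tRNA_Cys(GCA) by 1.13 (0.61 to 1.64). The EGR1 effect of Arg-tRNA_Gln(CUG) was lower than that of Arg-tRNA_Cys(GCA), with a difference of -1.43 (-1.91 to -0.94), and lower than that of Arg-tRNA_His(GUG), with a difference of -1.21 (-1.69 to -0.73). Between Ser-tRNA_Arg(CCG) and Arg-tRNA_Trp(CCA) the EGR1 effects did not differ beyond their error (-0.12, interval -0.60 to 0.36).

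The upstream sequences of EGR1 and EGR2 are shown because serum response factor binds the CArG box, the element best known in these promoters, and the 2 genes moved in opposite directions with Ser-tRNA_Arg(CCG). The RefSeq promoter table (build GRCh38.p14) held 7 of the 10 genes, without EGR3, IER3 and KLF10. The 250 bases before the start of EGR1 (chr5:138465229-138465478, plus strand, GRCh38.p14) and before the third listed start of EGR2 (chr10:62816367-62816616, minus strand) are given 5′ to 3′ with CArG boxes in capitals. That start of EGR2 is shown because its window holds matches, while the windows of the other 2 listed starts of EGR2 hold neither a CArG box nor the TGACG core described next.
EGR1: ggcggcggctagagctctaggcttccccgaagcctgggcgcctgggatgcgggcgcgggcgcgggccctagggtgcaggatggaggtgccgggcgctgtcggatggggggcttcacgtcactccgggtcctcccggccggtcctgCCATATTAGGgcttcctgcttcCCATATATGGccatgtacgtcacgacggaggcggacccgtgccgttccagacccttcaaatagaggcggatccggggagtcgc
EGR2: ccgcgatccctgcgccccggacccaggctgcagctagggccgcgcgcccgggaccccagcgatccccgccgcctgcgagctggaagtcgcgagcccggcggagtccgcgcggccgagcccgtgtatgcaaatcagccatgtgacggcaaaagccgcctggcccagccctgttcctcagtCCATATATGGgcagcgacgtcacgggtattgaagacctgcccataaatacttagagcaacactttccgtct
The boxes began at -105 and -83 before EGR1 and at -71 before EGR2, counted from the start site. A CArG box was found on either strand in 1.16% of 35116 promoter windows of the same length. The core TGACG of the cAMP response element, bound by CREB, occurred at -135 and -66 before EGR1, at -110 and -54 before EGR2, and at -140 before IER2 (21.2% of windows), and the EGR site GCGNGGGCG at -198 before EGR1 and at -65 before KLF6 (8.42% of windows). Both strands were searched, no match overlapped a capitalised box, and a match is a description of the letters only.

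KLF6 and KLF10 encode Krüppel-like zinc-finger factors; KLF6 is induced by injury and stress, and KLF10 is an early target of TGF-beta signalling. Both were well expressed, with 9.79 CPM per kilobase for KLF6 and 24.4 for KLF10 over the 30 libraries. KLF6 was at 57.9, 56.0 and 50.3 CPM with EGFP(R96C) alone and at 93.0, 95.8 and 90.2 CPM with Arg-tRNA_Cys(GCA). These 3 libraries were the highest of all 30, and KLF6 rose by 0.77 ± 0.06 (adjusted p = 9.49e-13). With Ser-tRNA_Arg(CCG) it was at 48.1, 48.0 and 54.4 CPM against 58.5, 61.2 and 62.5 CPM with EGFP(R65) alone, a fall by 0.28 ± 0.06 (adjusted p = 0.000445). The Ser effect on KLF6 lay below the Cys effect, with a log2 difference of -1.04 (95% interval -1.23 to -0.86). In the other 3 comparisons the KLF6 group means lay between 50.6 and 66.8 CPM and no change passed.

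KLF10 never rose. It was at 121, 130 and 130 CPM with EGFP(R96W) alone and at 62.9, 67.7 and 65.5 CPM with Arg-tRNA_Trp(CCA), a fall by 0.96 ± 0.07 (adjusted p = 9.79e-14) from the highest group mean of the series to the lowest. With Arg-tRNA_Cys(GCA) KLF10 was at 83.7, 90.3 and 87.7 CPM against 104, 97.3 and 107 CPM with EGFP(R96C) alone, and it fell by 0.24 ± 0.07 (adjusted p = 0.00285). With Ser-tRNA_Arg(CCG) it was at 83.2, 87.4 and 94.1 CPM against 97.2, 97.1 and 104 CPM alone, a fall by 0.17 ± 0.07 (adjusted p = 0.0295). The last call was lost with DESeq2 (adjusted p = 0.0772), with RLE factors (0.0715), with no filter on low counts (0.0550) and without any one of 3 libraries, EGFP(R65) replicate 3 or Ser-tRNA_Arg(CCG) replicate 1 or 2 (adjusted p up to 0.150). The KLF10 effect of Arg-tRNA_Trp(CCA) was lower than each of the other 4, by a log2 difference of 0.72 to 0.86.

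**Figure D2:**
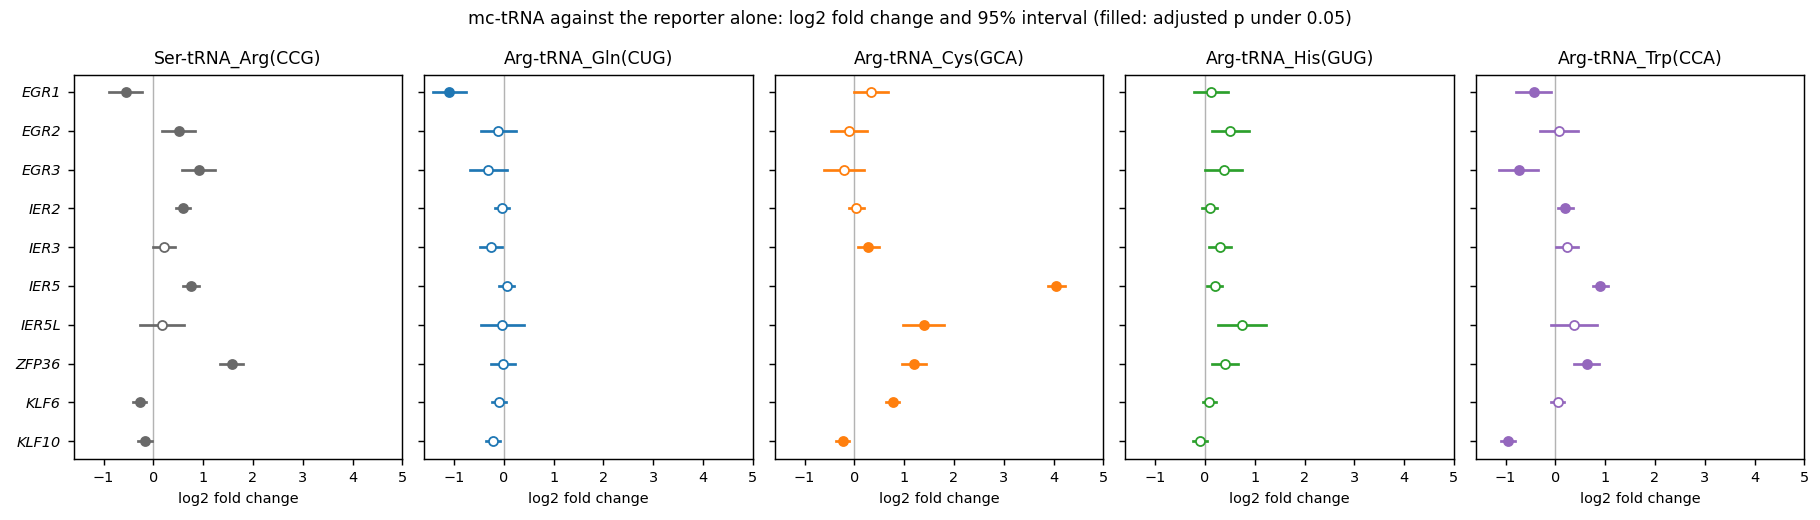
Log2 fold change of each gene with the mc-tRNA against the same reporter alone, 1 panel per mc-tRNA, with 95% intervals and filled points where the adjusted p was under 0.05. IER5 with Arg-tRNA_Cys(GCA) stands at 4.06, and KLF10 with Arg-tRNA_Trp(CCA) at -0.96.

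The IER genes were named for their early induction. IER2 is a nuclear protein of the early growth response, IER3 a stress-inducible protein linked to cell survival, and IER5 a nuclear regulator that is both a target and a cofactor of heat shock factor 1. IER5L is the IER5 paralogue, whose role is less known. Per kilobase, IER5 had a group mean of 222 CPM with Arg-tRNA_Cys(GCA) and of 8.67 to 19.1 CPM in the other 9 groups. KLF10 and IER2 each lay above IER5 in 8 of the 10 groups, with IER2 at 11.6 to 23.5 CPM per kilobase, while IER3, at most 9.61, and IER5L, at most 5.69, lay below it in every group.

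IER5 was at 46.1, 55.6 and 65.7 CPM with EGFP(R96C) alone and at 941, 933 and 916 CPM with Arg-tRNA_Cys(GCA). The gap between the groups exceeded the spread within either many times over, and IER5 rose by 4.06 ± 0.08 on the log2 scale (adjusted p = 3.22e-30). With Arg-tRNA_Trp(CCA) IER5 was at 81.1, 80.5 and 78.0 CPM against 44.2, 40.6 and 43.3 CPM with EGFP(R96W) alone, a rise of 0.90 ± 0.08 (adjusted p = 8.40e-12). With Ser-tRNA_Arg(CCG) it was at 56.9, 61.5 and 64.6 CPM against 36.2, 37.2 and 35.5 CPM with EGFP(R65) alone, a rise of 0.75 ± 0.08 (adjusted p = 3.01e-10). The Ser and Trp effects on IER5 did not differ beyond their error (-0.15, interval -0.38 to 0.07), while the Cys effect exceeded the Trp effect by 3.15 (2.93 to 3.38). With Arg-tRNA_His(GUG) the libraries were at 48.5, 47.6 and 46.7 CPM against 42.4, 41.3 and 41.3 CPM, which did not overlap but gave 0.19 ± 0.08 and did not pass (adjusted p = 0.184; 0.0218 with only these 6 libraries in the fit). With Arg-tRNA_Gln(CUG) IER5 overlapped between groups, at 47.6 to 53.4 CPM against 44.1 to 52.4 CPM.

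IER5L followed IER5 in the Cys comparison at a lower level. It was at 3.48, 6.77 and 7.29 CPM with EGFP(R96C) alone, where replicate 1 lay apart from the other 2, and at 14.5, 17.4 and 14.4 CPM with Arg-tRNA_Cys(GCA). IER5L rose by 1.39 ± 0.20, or 2.62-fold (adjusted p = 7.90e-07). With Arg-tRNA_His(GUG) it was at 3.30, 2.63 and 2.82 CPM against 1.71, 2.12 and 1.38 CPM with EGFP(R96H) alone. These groups did not overlap either, and the log2 fold change of 0.75 ± 0.24 missed the threshold (adjusted p = 0.0921), while it passed with DESeq2 (adjusted p = 0.0247), with no filter (0.00112) and with only the 6 libraries compared (0.00755). In the Ser, Gln and Trp comparisons the IER5L groups gave 0.17, -0.03 and 0.38 and did not pass. An annotated antisense gene, IER5L-AS1, had 621 counts over all libraries against 6343 for IER5L and rose by 1.15 ± 0.39 with Arg-tRNA_Cys(GCA) (adjusted p = 0.0102). The strand setting of the counting is not given in the sources used here, so reads of the pair may not be told apart.

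The upstream sequences of IER5 and IER5L are shown because these paralogues rose together with Arg-tRNA_Cys(GCA) and each holds a heat shock dyad, the paired repeat GAANNTTC of the heat shock factor site. The 250 bases before the RefSeq start lie at chr1:181088450-181088699, plus strand, for IER5, and at chr9:129178262-129178511, minus strand, for IER5L (GRCh38.p14), with the dyad in capitals.
IER5: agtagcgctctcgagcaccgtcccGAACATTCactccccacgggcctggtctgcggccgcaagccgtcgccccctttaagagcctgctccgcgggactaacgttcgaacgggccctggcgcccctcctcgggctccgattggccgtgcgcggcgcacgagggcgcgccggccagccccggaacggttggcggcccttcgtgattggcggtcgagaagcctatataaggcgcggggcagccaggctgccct
IER5L: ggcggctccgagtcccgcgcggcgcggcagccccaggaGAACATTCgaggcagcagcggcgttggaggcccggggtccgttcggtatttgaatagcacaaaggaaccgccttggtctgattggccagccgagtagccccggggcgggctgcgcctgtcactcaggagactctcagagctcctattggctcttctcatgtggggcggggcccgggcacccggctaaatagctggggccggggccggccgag
The dyad began at -226 before IER5 and at -212 before IER5L, and none of the other 5 genes in the table had one in its window. Among these 5 were ZFP36 and KLF6, which also rose with Arg-tRNA_Cys(GCA), by 1.20 and 0.77. A link between the dyad and the rises was not tested. GAANNTTC occurred in 5.78% of the 35116 windows. The other form of the dyad, TTCNNGAA, was also searched and occurred in 6.62% of windows and in none of the 7 genes. A dyad extended by a further repeat (0.441% of windows) was found in none of the 7 genes either. CCAAT, a common promoter box, was found before IER5, IER5L and KLF6, as in 32.0% of all windows. Both IER5 and IER5L are annotated with a single exon.

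IER2 and IER3 moved less. IER2 was at 48.2, 48.9 and 45.9 CPM with EGFP(R65) alone and at 69.8, 76.8 and 69.6 CPM with Ser-tRNA_Arg(CCG), its highest group, a rise of 0.60 ± 0.07 (adjusted p = 1.04e-08). This effect exceeded the IER2 effect of each of the other 4 mc-tRNAs, by 0.40 to 0.64. With Arg-tRNA_Trp(CCA) IER2 was at 36.7, 39.9 and 45.7 CPM against 35.8, 34.9 and 36.3 CPM, a rise of 0.19 ± 0.07 (adjusted p = 0.0330). That call was lost without mc-tRNA replicate 3, the highest library (adjusted p = 0.290), without EGFP(R96W) replicate 1 (0.0646) or replicate 2 (0.0987), with only the 6 libraries compared (0.0875) and with scaling by library totals (0.502). With Arg-tRNA_Cys(GCA) the IER2 groups overlapped at 49.6 to 54.0 CPM against 46.0 to 57.0 CPM.

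IER3 was at 9.50, 11.1 and 11.6 CPM with EGFP(R96C) alone and at 13.0, 12.9 and 13.2 CPM with Arg-tRNA_Cys(GCA), and it rose by 0.28 ± 0.11 (adjusted p = 0.0233). The groups did not overlap, but the call was lost when any library other than EGFP(R96C) replicate 3 was left out (adjusted p up to 0.144). It was also lost with no filter on low counts (0.234) and without the EGFP(R65) libraries (0.0595). With scaling by library totals IER3 turned to -0.27, and relative to the median of all genes it was at 0.32 under either scaling. IER3 with Ser-tRNA_Arg(CCG) gave 0.22 ± 0.11 and did not pass (adjusted p = 0.0829), but did with the replicate number as a block (adjusted p = 0.0401), with RLE factors (0.0472), with DESeq2 (0.0419) and with only the 6 libraries compared (0.0339). In the other 3 comparisons IER3 ranged from -0.26 to 0.30 on the log2 scale and did not pass. IER3-AS1, annotated on the opposite strand, had 1195 counts over all libraries against 11265 for IER3, and rose by 0.99 ± 0.27 with Ser-tRNA_Arg(CCG) (adjusted p = 0.00176).

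ZFP36 encodes tristetraprolin, an RNA-binding protein that brings deadenylases to AU-rich elements and so shortens the life of early response mRNAs, its own among them. ZFP36 was at 8.47, 9.23 and 8.13 CPM with EGFP(R65) alone and at 27.3, 25.2 and 24.2 CPM with Ser-tRNA_Arg(CCG), and rose by 1.57 ± 0.11 (adjusted p = 3.31e-14). It was at 4.60, 5.56 and 5.81 CPM with EGFP(R96C) alone and at 11.9, 12.0 and 12.9 CPM with Arg-tRNA_Cys(GCA), a rise of 1.20 ± 0.12 (adjusted p = 4.62e-11). With Arg-tRNA_Trp(CCA) it was at 7.52, 6.75 and 6.33 CPM against 3.78, 4.74 and 4.82 CPM, a rise of 0.63 ± 0.12 (adjusted p = 6.73e-05). None of these groups overlapped. ZFP36 and IER5 were the 2 of the 10 genes that rose with all of these 3 mc-tRNAs, and the order differed: the Ser effect on ZFP36 exceeded the Cys effect by 0.38 (0.05 to 0.70, adjusted p = 0.0464), while for IER5 the Ser effect lay below the Cys effect, with a difference of -3.31 (-3.53 to -3.08). With Arg-tRNA_His(GUG) ZFP36 was at 3.50, 3.90 and 4.25 CPM against 3.46, 2.62 and 2.76 CPM, or 0.40 ± 0.13, and did not pass (adjusted p = 0.0912). Without EGFP(R96H) replicate 1, the highest control library, the adjusted p was 0.0390.

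With Arg-tRNA_His(GUG), where none of the 10 passed, 9 of 10 had a log2 fold change above 0, beside 49.3% of all genes tested, and 7 did not overlap between groups, beside 27% of all genes. The unadjusted p was under 0.05 for 6 of them, EGR2, EGR3, IER3, IER5, IER5L and ZFP36, beside 16.3% of all genes. DESeq2 called 1, IER5L. With Arg-tRNA_Gln(CUG) 3 of 10 did not overlap, beside 16.2% of all genes. The numbers that did not overlap in the other comparisons were 10 of 10 with Ser-tRNA_Arg(CCG) (66.3% of all genes), 6 of 10 with Arg-tRNA_Cys(GCA) (61.8%) and 7 of 10 with Arg-tRNA_Trp(CCA) (47.8%).

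All 10 genes had effects that differed among the 5 mc-tRNAs by an F-test of the 4 contrasts together, beside 72.5% of all genes tested. The adjusted p ran from 7.10e-26 for IER5 to 0.0336 for EGR2. Of the 100 combinations of a gene with a pair of mc-tRNAs, 49 passed, and 31 without replicate 2 of every group. IER5 and ZFP36 differed in 8 of 10 pairs each and EGR1 and KLF6 in 6 each, while EGR2, IER3 and IER5L differed in 3 each. By pair, 6 of 10 genes differed between Ser and Gln (44.6% of all genes tested), 8 between Ser and Cys (56.5%), 5 between Ser and His (41.7%), 5 between Ser and Trp (45.3%) and 6 between Gln and Cys (50.2%). Between Gln and His 1 gene differed, EGR1 (0.811% of all genes), between Gln and Trp 5 (25.3%), between Cys and His 4 (48.2%), between Cys and Trp 6 (43.7%) and between His and Trp 3 (22.8%). Pairs that share an mc-tRNA are not independent of each other.

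Levels also differed between reporters without any mc-tRNA. Among the 4 EGFP(R96) reporters without mc-tRNA, 9 of the 10 genes differed, beside 54.7% of all genes, and EGR3 did not pass (adjusted p = 0.241). EGR1 ranked highest with EGFP(R65) alone at 32.3 ± 2.68 CPM (SD, n = 3) and with EGFP(R96Q) alone at 25.2 ± 4.64 CPM, whose ranges overlapped, and the other 3 reporters alone lay between 10.8 and 11.8 CPM. Between the highest and the lowest of the 10 group means IER5 spanned 25.6-fold, IER5L 8.88-fold, ZFP36 8.68-fold, EGR3 5.81-fold, EGR1 3.94-fold and EGR2 3.74-fold. IER3, IER2, KLF10 and KLF6 spanned 2.40-fold or less. Most neighbours in the order of group means overlapped: for IER5 the groups apart from the next were Arg-tRNA_Cys(GCA) at 930 ± 12.6 CPM, Arg-tRNA_Trp(CCA) at 79.9 ± 1.64 CPM, Arg-tRNA_His(GUG) at 47.6 ± 0.885 CPM and EGFP(R96H) at 41.7 ± 0.603 CPM, above the lowest, EGFP(R65) at 36.3 ± 0.836 CPM. The EGFP(R65) pair also differs from the other libraries in its spike-in counts, so levels in this pair and a difference in library preparation cannot be told apart.

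Other immediate early genes, a list of 39 with 38 tested, gave the setting in which the 10 genes moved. The counts of this list and of those below stand beside the shares of all genes tested. These were 30.2% rising and 30.5% falling with Arg-tRNA_Cys(GCA), 26.6% and 30.7% with Ser-tRNA_Arg(CCG), and 20.7% and 21.7% with Arg-tRNA_Trp(CCA). With Arg-tRNA_Gln(CUG) they were 0.273% and 0.278%, and with Arg-tRNA_His(GUG) 1.56% and 0.95%. With Arg-tRNA_Cys(GCA) 29 of 38 rose and 2 fell, with a median log2 fold change of 1.15 against -0.04 over all genes and 0.30 over the 10. With scaling by library totals, where the median of all genes was -0.59, 23 rose and 8 fell. DUSP1, a MAP kinase phosphatase, rose by 3.78 ± 0.10, ATF3, a stress-induced repressor, by 3.59 ± 0.09, FOS by 2.33 ± 0.27 and JUN, its AP-1 partner, by 2.20 ± 0.10, beside EGR1 at 0.33, EGR2 at -0.11, EGR3 at -0.22 and IER2 at 0.03, which did not pass. MYC fell by 0.88 ± 0.08, and SRF, the CArG box factor, was at -0.06. With Ser-tRNA_Arg(CCG) 21 of 38 rose and 10 fell (median 0.29 against -0.02). JUNB rose by 1.35 ± 0.10 and FOSB by 1.21 ± 0.20, while MYC fell by 1.40 ± 0.08 and ATF3 by 0.87 ± 0.08, and FOS was at 0.10 and did not pass. With Arg-tRNA_Trp(CCA) 24 of 38 rose and 2 fell (median 0.49 against -0.03), led by MAFF at 1.11 ± 0.11 and BTG2 at 1.10 ± 0.09. These 2 falls became 0 without EGFP(R96W) replicate 1 or Arg-tRNA_Trp(CCA) replicate 1, and 1 without EGFP(R96W) replicate 2 or Arg-tRNA_Trp(CCA) replicate 3. With Arg-tRNA_Gln(CUG) 1 rose and 2 fell: FOSB fell by 1.02 ± 0.22 beside the fall of EGR1, and FOS at -1.11 ± 0.26 did not pass (adjusted p = 0.0557). The Gln rise was lost without EGFP(R96Q) replicate 1 or 3 or Arg-tRNA_Gln(CUG) replicate 1 or 2, and the 2 falls became 1 without EGFP(R96Q) replicate 2 or 3 or Arg-tRNA_Gln(CUG) replicate 2 and 0 without Arg-tRNA_Gln(CUG) replicate 3 or with only those 6 libraries. With Arg-tRNA_His(GUG) 10 rose and 0 fell, led by FOSL1 at 0.89 ± 0.18. The His count of 10 fell to between 2 and 7 whichever library of the pair was left out. It was 2 without Arg-tRNA_His(GUG) replicate 1, 3 without EGFP(R96H) replicate 3, and 5 without EGFP(R96H) replicate 1 or Arg-tRNA_His(GUG) replicate 2. Likewise, the 21 rises with Ser-tRNA_Arg(CCG) became 16 to 20 whichever library of that pair was left out.

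**Figure D3:**
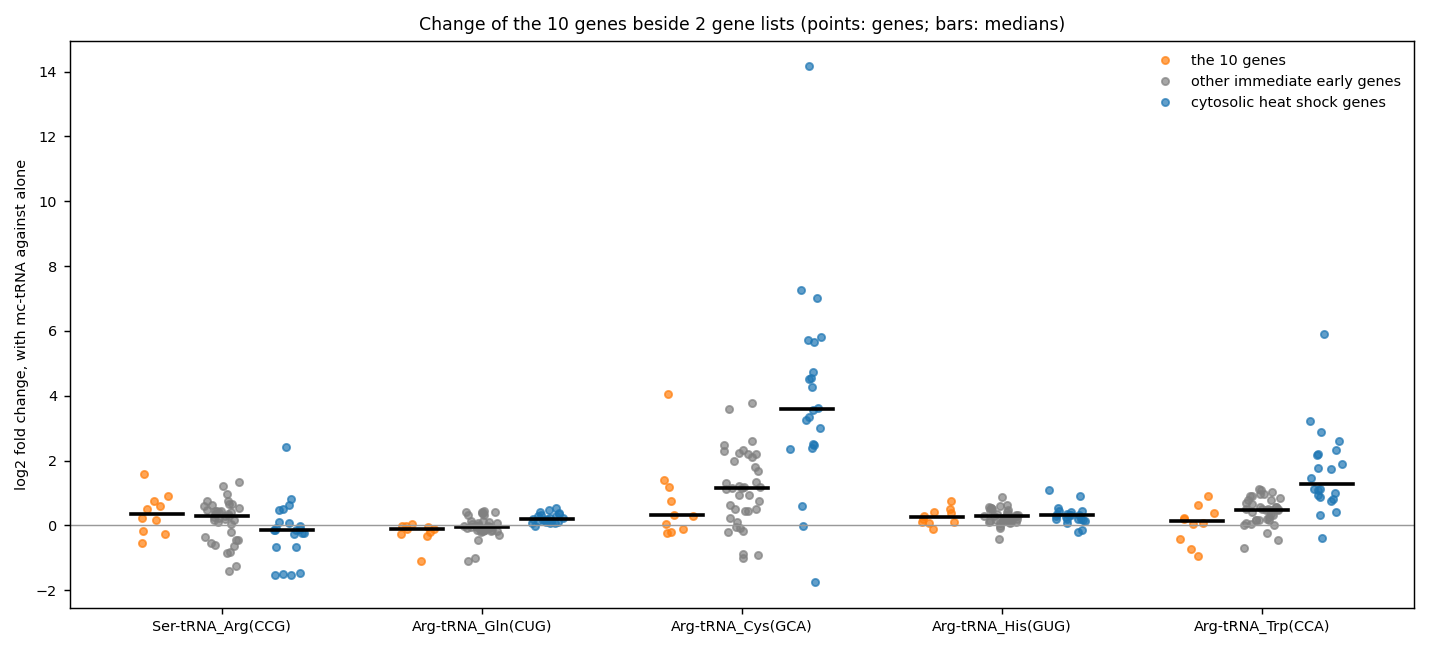
Log2 fold change with each mc-tRNA for the 10 genes, for 38 other immediate early genes and for 22 heat shock genes (mostly cytosolic), with 1 point per gene and a bar at each median. With Arg-tRNA_Cys(GCA) the medians are 0.30, 1.15 and 3.58 in that order, and IER5 at 4.06 is the highest of the 10.

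Heat shock genes share heat shock factor 1 with IER5 as a regulator. A list of 22 heat shock genes, mostly cytosolic, also held the mitochondrial HSPD1 and HSPE1 and the factors HSF1, HSF2 and HSF4. Of these 22, 20 rose and 1 fell with Arg-tRNA_Cys(GCA) (median 3.58), and 21 rose and 1 fell with Arg-tRNA_Trp(CCA) (median 1.29). DNAJB1, the HSP40 cochaperone, rose by 7.27 ± 0.10 and by 2.20 ± 0.08 there, and by 0.52 ± 0.08 with Ser-tRNA_Arg(CCG), where 5 of the 22 rose and 10 fell. HSF1 itself was at -0.02 with Arg-tRNA_Cys(GCA) and did not pass. With Arg-tRNA_Gln(CUG) 3 rose and with Arg-tRNA_His(GUG) 10 rose, where IER5 did not pass, and none fell in either. The His count was 1 without EGFP(R96H) replicate 3 or without Arg-tRNA_His(GUG) replicate 1, and 6 without Arg-tRNA_His(GUG) replicate 2. The Gln count of 3 became 1 or 2 whichever library of the pair was left out, and was 1 without replicate 2 of either group. The 1 fall with Arg-tRNA_Trp(CCA) was lost when any library other than Arg-tRNA_Trp(CCA) replicate 3 was left out.

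**Figure D4:**
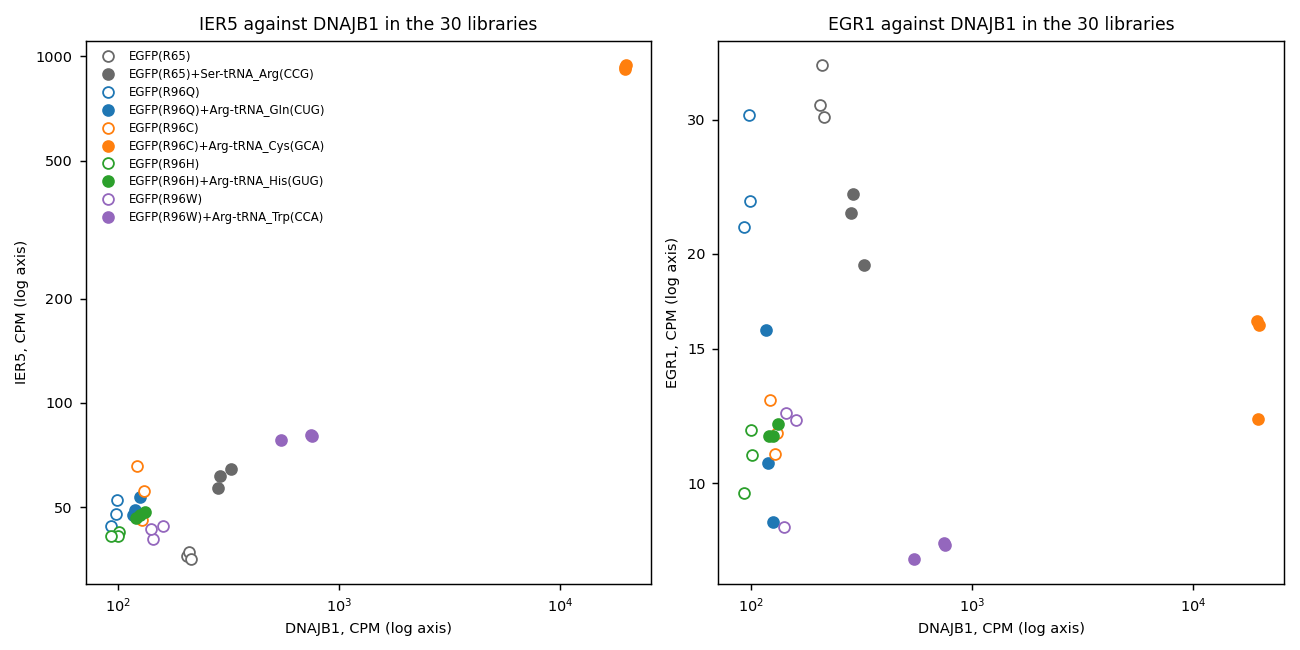
IER5 and EGR1 against DNAJB1 in the 30 libraries, in CPM on log axes, with open points for the reporter alone and filled points for the reporter with its mc-tRNA. The libraries with Arg-tRNA_Cys(GCA) are highest in both IER5 and DNAJB1. Their EGR1 level of 12.1 to 16.3 CPM overlaps that of their own control, EGFP(R96C) alone, at 10.9 to 12.9 CPM.

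Of 21 genes of the endoplasmic reticulum and integrated stress responses, 21 rose with Arg-tRNA_Cys(GCA), 17 rose with Arg-tRNA_Trp(CCA), 11 rose and 6 fell with Ser-tRNA_Arg(CCG), and 4 fell with Arg-tRNA_His(GUG), a count that became 0 without EGFP(R96H) replicate 3 or Arg-tRNA_His(GUG) replicate 1, 2 without Arg-tRNA_His(GUG) replicate 2, and 7 without EGFP(R96H) replicate 1 or Arg-tRNA_His(GUG) replicate 3. Without EGFP(R96W) replicate 1, 2 of them fell with Arg-tRNA_Trp(CCA). HSPA5, the chaperone BiP, rose by 3.76 ± 0.08 in the Cys, 2.18 ± 0.07 in the Trp and 1.69 ± 0.07 in the Ser comparison, the same 3 in which IER5 and ZFP36 rose. Of 34 genes of the serum response and MAP kinase pathway upstream of the EGR genes, 23 rose and 6 fell with Arg-tRNA_Cys(GCA), 17 rose and 7 fell with Arg-tRNA_Trp(CCA), 14 rose and 10 fell with Ser-tRNA_Arg(CCG), and 1 rose and 1 fell with each of the other mc-tRNAs. With library totals the Cys counts became 8 rises and 15 falls. The Gln fall was lost when any library other than Arg-tRNA_Gln(CUG) replicate 2 was left out, and both His calls were lost without EGFP(R96H) replicate 2 or 3 or Arg-tRNA_His(GUG) replicate 1 or 2, the rise also without EGFP(R96H) replicate 1. SPRY4, a feedback inhibitor of the pathway, rose by 3.08 ± 0.27 with Arg-tRNA_Cys(GCA) and fell by 1.73 ± 0.23 with Ser-tRNA_Arg(CCG), where EGR1 also fell. EGFR rose by 0.52 ± 0.08 with Arg-tRNA_Gln(CUG), beside the EGR1 fall.

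Of 9 tested genes of the EGR family, its corepressors and its targets, 3 rose and 6 fell with Arg-tRNA_Cys(GCA), 3 rose and 4 fell with Ser-tRNA_Arg(CCG), 1 rose and 2 fell with Arg-tRNA_Trp(CCA), and 0 passed with the other 2. The 2 falls became 1 without replicate 1 of either group, and with library totals the Trp counts were 0 rises and 4 falls. NAB1, a corepressor that binds EGR proteins, fell by 0.28 ± 0.08, 0.48 ± 0.08 and 0.50 ± 0.08 in the Cys, Ser and Trp comparisons. NAB2, itself an EGR1 target, rose by 0.26 ± 0.07 with Ser-tRNA_Arg(CCG) and fell by 0.34 ± 0.07 with Arg-tRNA_Cys(GCA). Of 14 other KLF genes tested, 6 rose and 4 fell with Arg-tRNA_Cys(GCA), 8 rose and 1 fell with Ser-tRNA_Arg(CCG), and 3 rose and 5 fell with Arg-tRNA_Trp(CCA), and 0 passed with the other 2. The 8 rises became 4 and 5 without EGFP(R65) replicate 1 and 2, and the 1 fall with Ser-tRNA_Arg(CCG) became 2 without EGFP(R65) replicate 2 or Ser-tRNA_Arg(CCG) replicate 3. The 3 rises with Arg-tRNA_Trp(CCA) became 1 without its replicate 3 and the 5 falls became 3 without its replicate 2. With library totals the Cys counts were 4 rises and 8 falls. KLF4 and KLF5 rose by 1.98 ± 0.13 and 1.61 ± 0.08 with Arg-tRNA_Cys(GCA), more than KLF6 in the same libraries, and KLF11, the closest relative of KLF10, fell by 0.43 ± 0.06.

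Of 16 TGF-beta pathway genes around KLF10, 4 fell and 1 rose with Arg-tRNA_Trp(CCA), where KLF10 fell most. Of all genes tested 21.7% fell and 20.7% rose there, so the count of falls is near that share and is no result about the pathway. Among the 16, ID2 and ID3, targets of this family of signals, fell by 0.61 ± 0.06 and 0.69 ± 0.10. The other counts were 4 rises and 5 falls with Ser-tRNA_Arg(CCG), 6 and 7 with Arg-tRNA_Cys(GCA), 1 and 0 with Arg-tRNA_His(GUG) and 0 and 0 with Arg-tRNA_Gln(CUG). In the Ser comparison the 5 falls became 3 without any library other than EGFP(R65) replicate 2. The 4 rises there became 2 or 3 whichever library was left out, and were 2 without EGFP(R65) replicate 3 or Ser-tRNA_Arg(CCG) replicate 1. The 6 rises with Arg-tRNA_Cys(GCA) became 4 or 5 whichever library of that pair was left out. The His rise was lost without any one of its 6 libraries. With library totals the counts were 2 rises and 12 falls with Arg-tRNA_Cys(GCA), and 1 rise and 11 falls with Arg-tRNA_Trp(CCA).

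Of 20 genes for AU-rich element binding and deadenylation, the machinery through which ZFP36 acts, 13 rose and 2 fell with Arg-tRNA_Cys(GCA), 9 rose and 5 fell with Arg-tRNA_Trp(CCA), 8 rose and 5 fell with Ser-tRNA_Arg(CCG), and 0 passed with the other 2. ZFP36L1, a ZFP36 relative, rose by 0.64 ± 0.06, 0.55 ± 0.06 and 0.36 ± 0.06 in these 3, each less than ZFP36. ZFP36L2 rose with Ser-tRNA_Arg(CCG), by 0.66 ± 0.07, and was at -0.08 with Arg-tRNA_Cys(GCA), where it did not pass. The 5 falls with Arg-tRNA_Trp(CCA) became 3 without EGFP(R96W) replicate 1 or 2, and with library totals the Cys counts became 4 rises and 8 falls. PARN, a deadenylase, fell by 0.84 ± 0.06 and 0.41 ± 0.06 with Arg-tRNA_Cys(GCA) and Arg-tRNA_Trp(CCA).

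The pentamer ATTTA, the core of AU-rich elements, occurred in the annotated 3′ untranslated region (GENCODE release 29) of 9 of the 10 genes, beside 66.9% of 19088 coding genes. ZFP36 held 7.01 matches per kilobase and IER3 6.64, beside a median of 1.47 over coding genes, of which 3.75% and 4.37% had more. IER5 held 10 matches at 3.32 per kilobase, EGR1 held 1, and IER2 held 0. In the Cys comparison ZFP36, IER3, IER5, IER5L (2.33 per kilobase) and KLF6 (1.69) rose. KLF10, at 2.23, fell, and EGR2 (1.65), EGR3 (1.07), EGR1 (0.81) and IER2 did not pass. In the Ser comparison ZFP36, IER5, EGR2 and EGR3 rose, as did IER2 without a match. There EGR1, KLF6 and KLF10 fell, and IER3 and IER5L did not pass. A link between the matches and these changes was not tested.

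As a description, the genes with the most similar pattern were sought by Pearson's r of log2 CPM over the 30 libraries after the mean of each reporter was subtracted, so that libraries of a group share their treatment. IER5 was most like DNAJB6P1, MINPP1 and DNAJB6 (each r = 0.99), of which DNAJB6 is an HSP40 cochaperone and DNAJB6P1 its processed copy, whose reads may not be told apart from those of DNAJB6. The IER5 log2 fold change was 4.06 with Arg-tRNA_Cys(GCA) and at most 0.90 with the other mc-tRNAs. Its r values, here and below, therefore rest largely on the Cys pair. IER2 was most like ZFP36L2, IRF2BPL (both r = 0.92) and JUNB (r = 0.90), IER5L like AC013394.1 (0.86), JUND (0.85) and JUN (0.84), and ZFP36 like LIN52 (0.96), H2BC12 and NECTIN2 (both 0.95). KLF6 was most like ARL6IP5, PLAA and CFL2 (all 0.95), and KLF10 like STMP1 (0.92), GPSM2 and EML6 (both 0.90). The EGR genes and IER3 had no partner above 0.85, with EGR1 nearest to NEK10 (0.80), EGR2 to HOXC11 (0.71), EGR3 to ENSG00000274184 (0.85) and IER3 to PHLDB3 (0.80). Among the 10 genes the highest values were IER5 with KLF6 (0.80), IER5 with IER5L (0.79) and IER2 with ZFP36 (0.76), and the lowest was ZFP36 with KLF10 (-0.51). KLF6 nevertheless fell with Ser-tRNA_Arg(CCG), where IER5 rose. EGR1 gave 0.09 with EGR3 and -0.05 with EGR2.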

How the data were processed

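Per the labels, polyA RNA of sorted HEK293 cells was sequenced from strand-specific libraries. The authors deposited whole-number counts per gene, made with STAR, SAMtools and featureCounts on hg38, per the submitters' processing notes, from uniquely mapped read pairs, per the file headers. No source used here gives their versions or the strand setting of counting. The 92 spike-in rows were left out. Identifiers were matched to symbols (57437 by the symbol table, 503 more by GENCODE release 29), and 55109 of 58278 carried the version of that release. Counts were fitted in edgeR 4.0.16 (R 4.3.3; TMM, filterByExpr, robust quasi-likelihood, 10 group means over 30 libraries, common biological coefficient of variation 8.24%), with Benjamini-Hochberg adjustment over 22321 genes and a threshold of 0.05. Scaled by the library total without TMM factors, a count of 3 is 0.0541 to 0.0769 CPM. The fit was tested on simulated data. Alternatives were RLE factors, library totals, no filter, DESeq2 1.42.0, the replicate number as a block, fewer libraries and leaving out each replicate. The main fit has no block, because the labels describe independent replicates and do not say that equal numbers share a batch. Same-numbered replicates correlated at 0.27 to 0.54 in all 3 Ser-tRNA_Arg(CCG) pairs, so they may be paired there, which the main fit ignores.

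All 10 genes are named throughout. From each list the text names called genes with the largest changes (up to 3 each way, at least 1 CPM) and a set of reference genes. The 10 genes and all lists were chosen with earlier results of these data known. The lists share some genes (EGR4, KLF2, KLF4, TGFB1, ZFP36L1, ZFP36L2 and SRF stand in 2).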

Additional observations from a re-analysis of the deposited data

Results flagged for a closer look

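The effects of the 5 mc-tRNAs differed by the F-test of the effects themselves in edgeR for each of the 10 genes, with adjusted p of 7.10e-26 for IER5, 3.36e-11 for KLF6, 6.71e-10 for ZFP36, 2.23e-09 for KLF10, 2.98e-06 for EGR3, 1.04e-05 for IER2, 4.67e-05 for EGR1, 0.000759 for IER5L, 0.00625 for IER3 and 0.0336 for EGR2. Among all genes tested 72.5% passed the same test.

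Sequences of the ERCC spike-in set, outside the comparisons above, had 0 counts in the 6 EGFP(R65) libraries and 10 to 106 counts in each of the other 24.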

How the results depend on the processing

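Of 640 alternative values for the log2 fold changes of the 10 genes, 579 kept direction and side of the threshold, 26 lost the call, 14 gained one and 21 changed sign. Low counts limit EGR2, EGR3 and IER5L most. The causes of the changes below were not tested.

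With library totals, values turned to -0.22 for EGR1, -0.51 for IER2 and -0.27 for IER3 with Arg-tRNA_Cys(GCA) and to -0.0501 for EGR2 and -0.0823 for KLF6 with Arg-tRNA_Trp(CCA), where the median of all genes moved from -0.03 to -0.16. IER2 with Arg-tRNA_Cys(GCA) was -0.0526 with no filter and -0.00144 without the EGFP(R65) libraries. When single replicates were left out, ranges crossed 0 with Arg-tRNA_Cys(GCA) for EGR2 (-0.219 to 0.0502), EGR3 (-0.478 to 0.0265) and IER2 (-0.0354 to 0.121), with Arg-tRNA_Trp(CCA) for EGR2 (-0.0162 to 0.183), and with Arg-tRNA_Gln(CUG) for IER2 (-0.0850 to 0.00749), IER5 (-0.00404 to 0.120), IER5L (-0.143 to 0.0417) and ZFP36 (-0.0915 to 0.115).

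Genes called with Arg-tRNA_Gln(CUG), 123, became 231 with DESeq2, 196 with no filter, 66 with only the 6 libraries compared and 45 to 93 without single replicates, the lowest without EGFP(R96Q) replicate 2. Genes called with Arg-tRNA_His(GUG), 560, became 1911 with only those 6 libraries, 369 without the EGFP(R65) libraries and 53 to 636 without single replicates, lowest without Arg-tRNA_His(GUG) replicate 1 and next, at 73, without EGFP(R96H) replicate 3. Of the 10 genes, the 1 called with Arg-tRNA_Gln(CUG) became 0 with only the 6 libraries, and the 0 called with Arg-tRNA_His(GUG) became 1 with DESeq2, 1 with no filter, 2 with only the 6 libraries and 0 to 1 without single replicates. The 10 genes whose effects differ among mc-tRNAs became 8 to 9 without replicates of 1 number. The 49 differences between pairs of mc-tRNAs became 31 to 49 without single replicates, the lowest without replicate 2.

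With the replicate number as a block, genes called with Arg-tRNA_Gln(CUG) became 196 and with Arg-tRNA_His(GUG) 1068, and 2 of the 10 genes were called with Arg-tRNA_Gln(CUG), with KLF10 added (adjusted p = 0.0403). EGR1 lost its call with Arg-tRNA_Trp(CCA) under the block (adjusted p = 0.128), and the block changed no other call among the 10 genes apart from IER3 with Ser-tRNA_Arg(CCG). Outside the Ser comparison, correlations of same-numbered replicates ran from -0.44 to 0.51. With Arg-tRNA_His(GUG) all were positive, at 0.31, 0.07 and 0.24, while the Gln, Cys and Trp pairs held both signs.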
